A study of Homo sapiens with 6 samples.

Results

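Heat shock proteins and their DNAJ partners, the main protein-folding helpers of the cell, were followed in SK-Hep1 cells depleted of YAP1 and TAZ. The members were all array probes whose platform gene symbol named an HSPA, HSPB, HSPD, HSPE, HSPH or HSP90 protein or a DNAJA, DNAJB or DNAJC co-chaperone, a rule that reads symbols and no intensities. They came to 111 of the 47231 probes on the array and stood for 72 genes. Another 3 probes, for the pseudogenes HSPA7 and DNAJB3, were left out. SK-Hep1 is an established human line labelled as hepatic adenocarcinoma. Cells received siRNAs against both genes (siYAP&TAZ, 3 samples) or a control siRNA (siLuc, 3 samples), and after 3 days the RNA of every sample was read on its own Illumina bead array. The labels name no other treatment, and are silent on whether the samples of a group were grown apart. The p-values therefore reflect no more than the spread among these 6 samples, part of which may be technical.

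HSP70 proteins (HSPA genes) bind unfolded stretches of other proteins and release them in a cycle driven by ATP. DNAJ proteins deliver substrates and switch on that ATPase through their J domain, and HSPH1 and the HSPA4 group are large HSP70 relatives that renew the bound nucleotide. HSP90 finishes the folding of kinases and receptors, HSPD1 with its lid HSPE1 forms the folding chamber of mitochondria, and the small HSPB proteins hold unfolded proteins without ATP. Many cytosolic members can be induced by HSF1 through heat shock elements, whereas those of the endoplasmic reticulum (ER) answer to the unfolded protein response.

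The arrays had median intensities between 62.23 and 82.95, and each detected between 13620 and 16827 probes above its own background. The number of arrays limited the precision. The siRNA targets were lower on every siYAP&TAZ array than on any siLuc array. YAP1 was at 8.42, 8.33 and 8.42 on the siYAP&TAZ arrays and at 10.77, 10.85 and 10.79 on the siLuc arrays (normalised log2 intensity), which is 5.33-fold lower. WWTR1, the gene of TAZ, was at least 2.34-fold lower, with its probe below background on all 3 siYAP&TAZ arrays. Of the 9 hepatocyte markers with a probe, 6 (APOA1, APOA2, APOB, TTR, FGB and TF) were below background on all arrays, and AFP was detected on 2 siLuc arrays and on no siYAP&TAZ array. SERPINA1 was 2.84-fold higher and ALB 1.39-fold lower after knockdown. The ALB probe lay near background and was detected on 2 siYAP&TAZ arrays and on all 3 siLuc arrays. Of 6 endothelial markers, ENG was detected. CD14, counted among the leukocyte markers, was 3.23-fold higher after knockdown, and the fibroblast markers COL3A1 and COL1A1 were 3.31-fold and 1.81-fold higher. LUM, another of the 5 fibroblast markers, passed the detection filter only through the siYAP&TAZ arrays. PDGFRB was detected on 2 siYAP&TAZ arrays and on no siLuc array. The brightest probes of DCN, PTPRC and CD3E stayed below background throughout. Their part in the results below was not tested. In RNA from whole cultures, fewer cells of a kind and less RNA per cell cannot be told apart.

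Of the 72 genes, 53 had a probe above background on at least 3 arrays and were tested. Their transcripts were lower more often than higher after knockdown: 21 (39.6%) fell, 6 (11.3%) rose and 26 did not pass an adjusted p of 0.05 (limma, Benjamini-Hochberg over 15899 probes). Over all 9718 genes tested, 54.8% were called, with 27.5% lower and 27.4% higher, so the share of members called (50.9%) was near that of all genes. Lower calls outnumbered higher ones among the members and were about as many as higher ones over all genes. The median log2 change of the members was -0.10, against 0.0016 for all genes. Counted by probe, 28 of 71 tested member probes were lower and 9 higher, 1 of these 9 (for DNAJB12) not being detected on any siLuc array, while 52.2% of all tested probes were called (25.7% lower and 26.5% higher). With arrays scaled to a common median, which moved the median of all genes to -0.11 and that of the members to -0.27, 20 members were lower and 2 higher, or 9.09% of the calls in place of 22.2%. With no detection filter 16 members were lower and 3 higher, and DNAJB1, DNAJC3, HSPA4, HSPA13, HSPE1, DNAJB9, DNAJC21 and HSPB1 missed the threshold (adjusted p from 0.0575 for HSPA4 to 0.177 for DNAJC3). The shares of all genes called under these settings are not given, so these counts have no baseline and are not read as particular to the members. Most changes were below 2-fold, and 3 members reached it (10.7% of all genes did). The arrays of each group did not overlap for 31 members (58.5%, against 62.4% of all genes). The 19 members with no tested probe included 6 of the 7 HSPB genes and HSPA6, a strictly stress-inducible HSP70. The others were HSPA12B, DNAJB7, DNAJB8, DNAJB13, DNAJC5B, DNAJC5G, DNAJC6, DNAJC11, DNAJC12, DNAJC15, DNAJC16 and DNAJC22. For 17 of these 19, no probe stood above background on any array, and HSPA6 and DNAJC11 were detected on 2 arrays each.

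**Figure D1:**
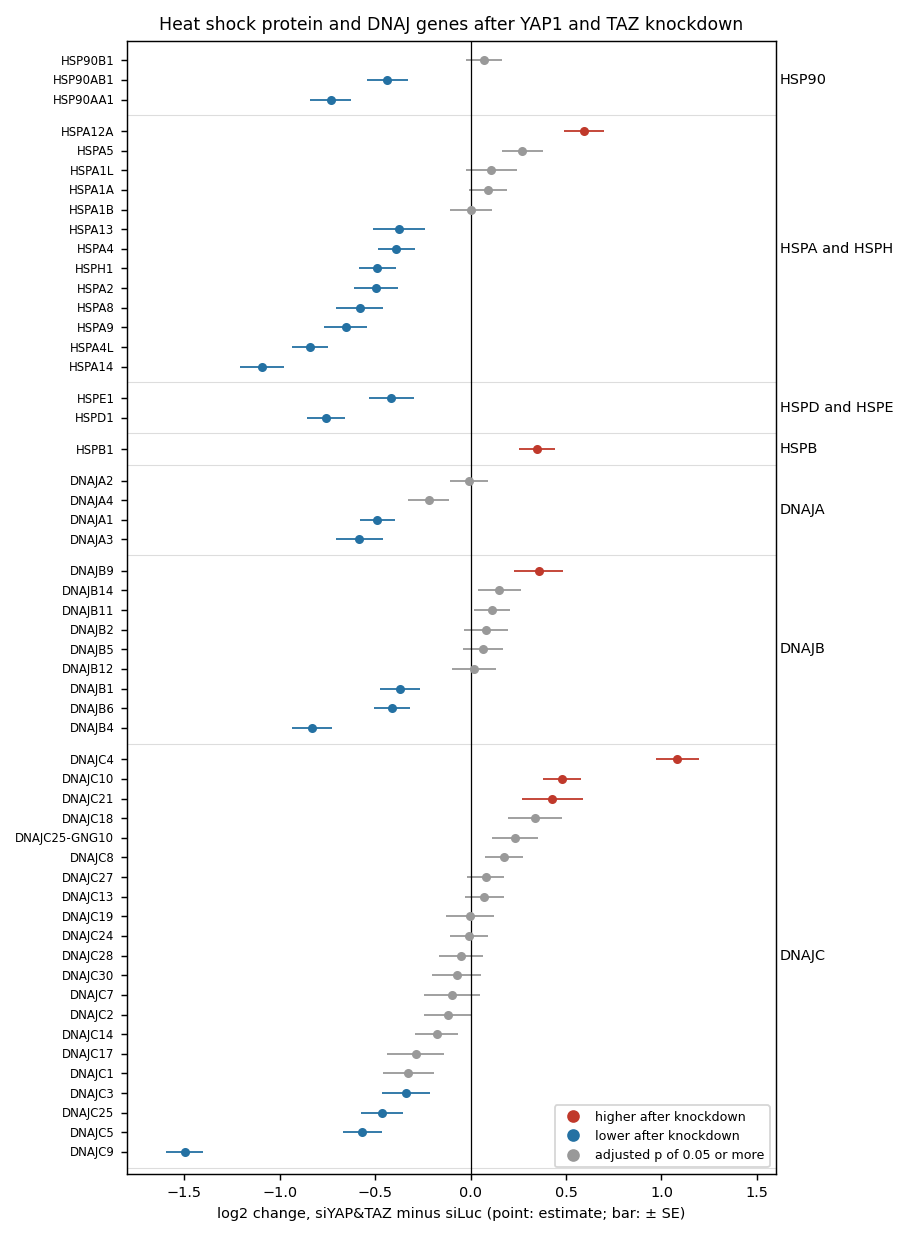
Log2 change, siYAP&TAZ minus siLuc, of the 53 tested members, with a point for the estimate and a bar for ± SE, grouped by family. HSP90, HSPA and HSPH genes lie mostly on the lower side, down to -1.09 for HSPA14, whereas DNAJC genes spread from -1.50 for DNAJC9 to 1.08 for DNAJC4.

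Both cytosolic HSP90 genes fell, and the HSP90 of the ER did not pass. HSP90AA1, the inducible cytosolic form, was at 13.07, 13.11 and 13.12 on the siYAP&TAZ arrays and at 13.99, 13.84 and 13.66 on the siLuc arrays. The groups did not overlap, and the siLuc arrays spread more widely. The change was -0.73 ± 0.11 (SE) on the log2 scale, or 1.66-fold lower (adjusted p = 0.000181). Its other tested probe gave -0.25 and did not pass (adjusted p = 0.113). There the siYAP&TAZ arrays were at 12.39, 12.49 and 12.39 and the siLuc arrays at 12.82, 12.79 and 12.41, so that siLuc replicate 3 lay among the siYAP&TAZ arrays. HSP90AB1, the constitutive cytosolic form, was at 12.40, 12.50 and 12.25 on the siYAP&TAZ arrays and at 12.95, 12.78 and 12.73 on the siLuc arrays, 1.35-fold lower (adjusted p = 0.00554). HSP90B1, known as GRP94 in the ER, was at 13.02, 13.04 and 13.03 on the siYAP&TAZ arrays and at 13.00, 12.90 and 12.98 on the siLuc arrays, a log2 change of 0.07 ± 0.093 (SE, adjusted p = 0.562).

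Among the 13 tested HSP70 and HSP110 genes, 8 fell (61.5%), 1 rose (7.69%) and 4 did not pass, with a median log2 change of -0.39. The shares of all tested genes were 27.5% lower and 27.4% higher. HSPA8, the constitutive HSC70 of the cytosol, was at 12.72, 12.86 and 12.61 on the siYAP&TAZ arrays and at 13.43, 13.43 and 13.08 on the siLuc arrays. It was 1.5-fold lower (log2 change -0.58 ± 0.12 SE, adjusted p = 0.0022), and its other probe gave -0.70. The stress-inducible pair HSPA1A and HSPA1B did not pass the threshold. HSPA1A was at 10.50, 10.41 and 10.41 on the siYAP&TAZ arrays and at 10.43, 10.40 and 10.23 on the siLuc arrays, a change of 0.09 ± 0.10 (SE, adjusted p = 0.481). HSPA1B was at 9.89, 10.07 and 10.04 on the siYAP&TAZ arrays and at 9.85, 10.14 and 9.99 on the siLuc arrays, a change of 0.0027 ± 0.11 (SE, adjusted p = 0.986). The groups overlapped for both. These genes have nearly the same coding sequence, so how far each probe reads the other copy is unknown. HSPA1L, their neighbour on chromosome 6, had a change of 0.11 and also did not pass.

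The large HSP70 relatives HSPH1, HSPA4L and HSPA4, which renew its nucleotide, fell as well. HSPH1, or HSP110, was at 10.52, 10.44 and 10.53 on the siYAP&TAZ arrays and at 10.95, 11.08 and 10.93 on the siLuc arrays, 1.40-fold lower (adjusted p = 0.00135). HSPA4L was at 7.02, 7.02 and 6.95 on the siYAP&TAZ arrays and at 7.77, 7.89 and 7.87 on the siLuc arrays, 1.79-fold lower (adjusted p = 2.48e-05). HSPA4 fell 1.31-fold by its brighter probe, whereas its dimmer probe gave a log2 change of 0.05, and with the mean of both probes the change was -0.17 (adjusted p = 0.111). HSPA14, which acts at the ribosome with DNAJC2, had the largest fall of the HSP70 genes tested. Its level was 7.62, 8.0 and 7.86 on the siYAP&TAZ arrays and 8.86, 8.97 and 8.92 on the siLuc arrays, 2.13-fold lower (log2 change -1.09 ± 0.11 SE, adjusted p = 1.48e-05). Its partner DNAJC2 had a change of -0.12 and did not pass. HSPA2, best known from the testis, fell 1.41-fold, and its other probe gave -0.25 (adjusted p = 0.0857). The member that rose was HSPA12A, a distant HSP70 relative, at 8.02, 7.83 and 7.92 on the siYAP&TAZ arrays and 7.27, 7.45 and 7.26 on the siLuc arrays, 1.51-fold higher (adjusted p = 0.000597). The other HSPA12A probes stayed below background on every array.

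**Figure D2:**
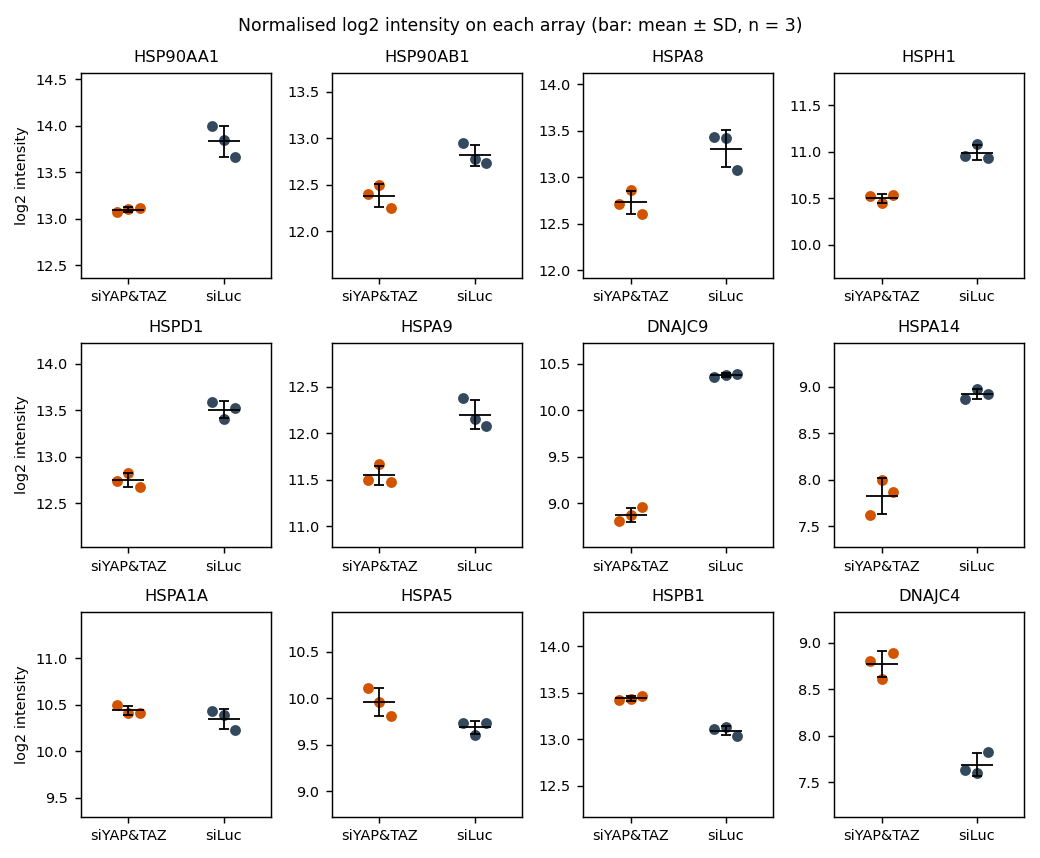
Normalised log2 intensity of 12 members on each array, siYAP&TAZ left and siLuc right, with mean ± SD (n = 3 each) and the same span of 2.2 log2 units in every panel. Arrays of the groups are apart for HSP90AA1, HSP90AB1, HSPA8, HSPH1, HSPD1, HSPA9, DNAJC9 and HSPA14, which are lower after knockdown, overlap for HSPA1A, and are apart with siYAP&TAZ higher for HSPA5, HSPB1 and DNAJC4.

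Of 6 tested members placed in mitochondria, HSPD1, HSPE1, HSPA9 and DNAJA3 fell and DNAJC19 and DNAJC30 did not pass, with a median log2 change of -0.50. The share that fell was 66.7%, against 27.5% of all genes. Compartments were assigned from general knowledge and completed after the values were seen. DNAJC4 (log2 change 1.08) and DNAJC28 (-0.05), whose place is less certain, were counted in neither the mitochondrial nor the ER group. The median of the mitochondrial members rests in part on that choice. HSPD1, the chaperonin HSP60, was at 12.74, 12.83 and 12.68 on the siYAP&TAZ arrays and at 13.59, 13.40 and 13.52 on the siLuc arrays. It was 1.69-fold lower (log2 change -0.76 ± 0.10 SE, adjusted p = 8.38e-05), and 2 other probes gave -0.68 and -0.53, each past the threshold. HSPE1, its lid, was at 11.64, 11.97 and 11.58 on the siYAP&TAZ arrays and at 12.08, 12.19 and 12.17 on the siLuc arrays, 1.33-fold lower (adjusted p = 0.0119). Without siYAP&TAZ replicate 3 the change in HSPE1 was -0.34 (adjusted p = 0.0557), and its other probe gave -0.35 (adjusted p = 0.238), with siLuc replicate 2 at 10.46 against 11.44 and 11.57 for the other siLuc arrays. HSPA9, the mitochondrial HSP70, was at 11.50, 11.67 and 11.47 on the siYAP&TAZ arrays and at 12.38, 12.15 and 12.08 on the siLuc arrays, 1.58-fold lower (adjusted p = 0.00053). DNAJA3, its J-domain partner, was at 9.56, 9.35 and 9.79 on the siYAP&TAZ arrays and at 10.18, 10.20 and 10.07 on the siLuc arrays, 1.5-fold lower (adjusted p = 0.00195). DNAJC19, which serves the import motor, had a change of -0.0027 and did not pass. DNAJC30, of the inner membrane, had a change of -0.07. DNAJC11 and DNAJC15 were not tested.

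HSPD1 and HSPE1 lie head to head on chromosome 2, with 104 bases between their RefSeq starts. The window of the HSPE1 start is shown, since both genes fell and are read outward from it, and the capitals mark the bases between the starts (RefSeq, GRCh38.p14).
HSPE1, chr2:197500129-197500428, plus strand: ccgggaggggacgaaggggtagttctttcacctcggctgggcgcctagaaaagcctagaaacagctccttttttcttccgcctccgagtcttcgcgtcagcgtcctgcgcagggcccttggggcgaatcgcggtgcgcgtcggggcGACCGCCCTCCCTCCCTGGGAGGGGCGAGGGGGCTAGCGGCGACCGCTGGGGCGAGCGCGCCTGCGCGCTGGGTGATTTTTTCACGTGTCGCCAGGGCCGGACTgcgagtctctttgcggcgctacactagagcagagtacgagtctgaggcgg

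Of 13 tested members placed in the ER, 2 rose (15.4%), 3 fell (23.1%) and 8 did not pass, with a median log2 change of 0.07. Both shares were below those of all genes, 27.4% and 27.5%. HSPA5, known as BiP, the HSP70 of the ER and a standard marker of the unfolded protein response, was at 10.11, 9.97 and 9.81 on the siYAP&TAZ arrays and at 9.73, 9.61 and 9.73 on the siLuc arrays. The groups did not overlap, but the change of 0.27 ± 0.11 (SE) missed the threshold (adjusted p = 0.0532). It passed under 6 of the other settings (adjusted p from 0.0349 to 0.0421), at a change of 0.26 to 0.35. HSPA5 missed the threshold under the rest, among them no detection filter and replicate number as a block. With median scaling its change was 0.05 in place of 0.27 and did not pass. DNAJC10, an ER reductase with a J domain, was at 10.38, 10.48 and 10.41 on the siYAP&TAZ arrays and at 10.01, 10.00 and 9.83 on the siLuc arrays, 1.39-fold higher (adjusted p = 0.00182), and its other probe gave 0.56. With median scaling its change was 0.25 (adjusted p = 0.314). DNAJB9, a repressor of the stress sensor IRE1, was at 9.42, 9.45 and 9.21 on the siYAP&TAZ arrays and at 9.20, 8.76 and 9.04 on the siLuc arrays, 1.28-fold higher (adjusted p = 0.0348). Its call was lost without siYAP&TAZ replicate 1 (adjusted p = 0.0911) or 2 (0.0865), without siLuc replicate 2 (0.145) or 3 (0.0635), and with median scaling, where the change was 0.15 in place of 0.36.

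Of the ER members that fell, DNAJC25, a membrane protein with a J domain, was at 7.48, 7.23 and 7.20 on the siYAP&TAZ arrays and at 7.82, 7.80 and 7.68 on the siLuc arrays, 1.38-fold lower (adjusted p = 0.00399). DNAJC3, an inhibitor of the kinase PERK, was at 6.75, 6.92 and 6.45 on the siYAP&TAZ arrays and at 7.09, 7.11 and 6.92 on the siLuc arrays, 1.26-fold lower (adjusted p = 0.0442). Its call was lost without siYAP&TAZ replicate 1 (adjusted p = 0.0669), siYAP&TAZ replicate 3 (0.193, at a change of -0.21 in place of -0.34), siLuc replicate 1 (0.109) or siLuc replicate 2 (0.132), and with median scaling (0.0921). HSPA13 was 1.3-fold lower (adjusted p = 0.0396), with overlapping groups. Its call was lost without siYAP&TAZ replicate 2 (adjusted p = 0.0621), siYAP&TAZ replicate 3 (0.167, at -0.25 in place of -0.37), siLuc replicate 1 (0.138) or siLuc replicate 3 (0.0933), and with the mean of its probes (0.0772, at -0.22). DNAJB11, which serves BiP, had a change of 0.11 and DNAJC1 one of -0.33, and neither passed. The ER membrane proteins DNAJB12, DNAJB14, DNAJC14 and DNAJC18 had changes of 0.02, 0.15, -0.18 and 0.34 and did not pass either. The gene DNAJC25-GNG10, a readthrough that joins DNAJC25 to its neighbour GNG10, had a change of 0.23 (adjusted p = 0.135), and which of the overlapping transcripts its probe reads was not tested.

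HSPB1, or HSP27, was the tested member of the small heat shock proteins, and it rose. Its level was 13.42, 13.43 and 13.46 on the siYAP&TAZ arrays and 13.11, 13.13 and 13.03 on the siLuc arrays. All siYAP&TAZ arrays lay above the siLuc arrays, 1.27-fold on average (log2 change 0.35 ± 0.093 SE, adjusted p = 0.00845). With median scaling the change was 0.37 and did not pass (adjusted p = 0.123).

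Among the DNAJA and DNAJB genes outside the ER and mitochondria, DNAJA1, DNAJB1, DNAJB4 and DNAJB6 fell. DNAJA1, a farnesylated partner of HSPA8, was at 11.09, 11.11 and 11.06 on the siYAP&TAZ arrays and at 11.52, 11.59 and 11.62 on the siLuc arrays, 1.40-fold lower (adjusted p = 0.00109). DNAJA2, its close relative, had a change of -0.0089 ± 0.10 (SE, adjusted p = 0.949) with overlapping groups, and DNAJA4 one of -0.22 (adjusted p = 0.109). DNAJB1, or HSP40, was at 9.95, 10.16 and 9.94 on the siYAP&TAZ arrays and at 10.42, 10.30 and 10.45 on the siLuc arrays, 1.29-fold lower (adjusted p = 0.0111). DNAJB4 fell further than DNAJB1, to 9.72, 9.5 and 9.59 on the siYAP&TAZ arrays, against 10.42, 10.34 and 10.55 on the siLuc arrays. It was 1.78-fold lower (adjusted p = 6.01e-05), and its other probe gave -0.74. Whether the change differs from that of DNAJB1 was not tested. DNAJB6, a suppressor of amyloid aggregation, was at 10.99, 11.02 and 10.99 on the siYAP&TAZ arrays and at 11.46, 11.45 and 11.32 on the siLuc arrays, 1.33-fold lower (adjusted p = 0.00366), and a further probe gave -0.47. The neuronal co-chaperone DNAJB2 had a change of 0.08 and DNAJB5 one of 0.06, and neither passed.

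The DNAJC genes share the J domain and little else, and they held both the largest fall and the largest rise of the members tested. Of 21 tested, 4 fell (19%), 3 rose (14.3%) and 14 did not pass, with a median log2 change of -0.05. Both shares were below those of all genes, 27.5% lower and 27.4% higher. DNAJC9, a histone chaperone that also carries a J domain, was at 8.81, 8.87 and 8.96 on the siYAP&TAZ arrays and at 10.36, 10.38 and 10.40 on the siLuc arrays, 2.83-fold lower (log2 change -1.50 ± 0.095 SE, adjusted p = 3.38e-07). DNAJC5, the cysteine string protein of secretory vesicles, was at 6.70, 6.58 and 6.45 on the siYAP&TAZ arrays and at 7.16, 7.12 and 7.16 on the siLuc arrays, 1.48-fold lower (adjusted p = 0.000658). DNAJC4 was at 8.81, 8.61 and 8.89 on the siYAP&TAZ arrays and at 7.63, 7.60 and 7.83 on the siLuc arrays, 2.12-fold higher (log2 change 1.08 ± 0.11 SE, adjusted p = 1.35e-05). The arrays of the groups were far apart for all 3 relative to their spread. The other DNAJC4 probe stayed below background on every array. DNAJC21, a ribosome biogenesis factor, was at 6.84, 7.38 and 6.82 on the siYAP&TAZ arrays and at 6.79, 6.36 and 6.61 on the siLuc arrays, 1.34-fold higher (adjusted p = 0.0436), but its call was lost without siYAP&TAZ replicate 2 (change 0.25 in place of 0.43, adjusted p = 0.143), siLuc replicate 2 (0.31, adjusted p = 0.176) or siLuc replicate 3 (adjusted p = 0.0858). It was also lost with median scaling (adjusted p = 0.102), with replicate number as a block (0.0672) and with the mean of its probes (0.0511, at a change of 0.22). Another tested DNAJC21 probe gave 0.02. DNAJC8 and DNAJC17, which associate with the spliceosome, and DNAJC7, a partner of HSP70 and HSP90, had changes of 0.17, -0.29 and -0.10 and did not pass. All DNAJC genes that did not pass lay between -0.33 for DNAJC1 and 0.34 for DNAJC18. Without siYAP&TAZ replicate 1, DNAJC17 passed at -0.49 (adjusted p = 0.00418), and DNAJC1 did at -0.44 (adjusted p = 0.0213).

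The promoters of members that fell and of members that did not were then set side by side. RefSeq (GRCh38.p14) start windows, from 250 bases before to 50 after a start, were matched for 65 of the 72 genes. A heat shock element of 3 units, spelled GAANNTTC and directly after it NNGAA, was searched on both strands and found in 0.608% of the 27305 genes with a window and in 7 members. Of these 7, 6 fell (HSPA8, HSP90AA1, HSP90AB1, HSPD1, DNAJA1 and DNAJB6), with log2 changes between -0.76 and -0.41, and HSPA6 was not tested. None of the 6 members that rose and none of the 24 that did not pass held it. The windows of the 6 genes that fell are shown, with the match in capitals.
HSPA8, chr11:123062087-123062386, minus strand: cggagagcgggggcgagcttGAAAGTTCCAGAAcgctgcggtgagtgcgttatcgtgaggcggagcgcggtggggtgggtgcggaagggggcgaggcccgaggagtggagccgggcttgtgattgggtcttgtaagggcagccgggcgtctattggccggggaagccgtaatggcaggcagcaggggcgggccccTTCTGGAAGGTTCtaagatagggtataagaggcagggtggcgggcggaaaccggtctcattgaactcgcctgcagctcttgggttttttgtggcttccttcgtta
HSP90AA1, chr14:102086995-102087294, minus strand: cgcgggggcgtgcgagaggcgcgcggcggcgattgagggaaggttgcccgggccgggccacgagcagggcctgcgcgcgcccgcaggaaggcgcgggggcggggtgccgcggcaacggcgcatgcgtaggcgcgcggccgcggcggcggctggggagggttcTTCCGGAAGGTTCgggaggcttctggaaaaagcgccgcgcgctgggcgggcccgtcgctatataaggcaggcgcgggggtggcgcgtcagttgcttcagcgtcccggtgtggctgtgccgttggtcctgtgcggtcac
HSP90AB1, chr6:44247693-44247992, plus strand: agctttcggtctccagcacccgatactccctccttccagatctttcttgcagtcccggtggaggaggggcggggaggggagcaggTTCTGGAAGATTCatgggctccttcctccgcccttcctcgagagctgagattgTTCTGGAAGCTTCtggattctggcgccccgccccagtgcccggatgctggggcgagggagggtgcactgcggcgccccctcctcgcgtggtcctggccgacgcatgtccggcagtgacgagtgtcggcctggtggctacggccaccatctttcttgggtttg
HSPD1, chr2:197499791-197500090, minus strand: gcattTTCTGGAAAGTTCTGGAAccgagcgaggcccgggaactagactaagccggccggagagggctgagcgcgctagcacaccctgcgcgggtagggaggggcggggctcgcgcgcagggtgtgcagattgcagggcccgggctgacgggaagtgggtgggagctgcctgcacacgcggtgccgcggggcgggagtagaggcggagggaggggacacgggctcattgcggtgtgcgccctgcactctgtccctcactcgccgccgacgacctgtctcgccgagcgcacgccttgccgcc
DNAJA1, chr9:33025023-33025322, plus strand: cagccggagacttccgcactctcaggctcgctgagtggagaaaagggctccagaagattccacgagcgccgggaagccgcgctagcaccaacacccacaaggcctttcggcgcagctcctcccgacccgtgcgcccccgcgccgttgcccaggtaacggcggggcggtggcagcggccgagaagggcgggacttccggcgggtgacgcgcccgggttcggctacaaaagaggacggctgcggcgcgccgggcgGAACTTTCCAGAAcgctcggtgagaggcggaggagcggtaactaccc
DNAJB6, chr7:157336754-157337053, plus strand: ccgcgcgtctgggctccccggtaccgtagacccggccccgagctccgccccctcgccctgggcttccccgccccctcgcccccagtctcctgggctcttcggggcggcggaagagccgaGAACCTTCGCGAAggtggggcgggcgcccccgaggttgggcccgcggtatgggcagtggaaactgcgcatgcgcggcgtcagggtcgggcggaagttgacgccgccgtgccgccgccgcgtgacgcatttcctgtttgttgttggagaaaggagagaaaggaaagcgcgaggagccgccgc

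The match began 88 bases before the start in HSP90AA1 and 131 bases before it in DNAJB6, and HSPA8 had matches 230 and 55 bases before. HSP90AB1 had matches at 165 and 112 bases before the start. In DNAJA1 the match began 3 bases after the start, and in HSPD1 overlapping matches lay 245 and 240 bases before an alternative start, not the one shared with HSPE1. Across all 7949 tested genes with a window the picture was different. Of the 40 tested genes that held it, members included, 13 (32.5%) were lower and 12 (30%) higher, against 27.5% and 27.2% of the genes without it. The 6 members that fell were among these 13 lower genes, and no member was among the 12 higher ones.

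A heat shock element of 2 units, GAANNTTC or TTCNNGAA on either strand, is part of the longer one and was present in 16.2% of genes and in 22 members. It was found in 10 of the 20 members that fell and had a window, 1 of 6 that rose (HSPB1) and 4 of 24 that did not pass (DNAJA4, HSPA1A, HSPA1B and HSPA1L). Over all tested genes, 28.6% of those with it were lower and 27.3% higher. The window of HSPA1A is shown because this heat-inducible gene holds such an element 106 bases before its start and had a log2 change of 0.09.
HSPA1A, chr6:31815293-31815592, plus strand: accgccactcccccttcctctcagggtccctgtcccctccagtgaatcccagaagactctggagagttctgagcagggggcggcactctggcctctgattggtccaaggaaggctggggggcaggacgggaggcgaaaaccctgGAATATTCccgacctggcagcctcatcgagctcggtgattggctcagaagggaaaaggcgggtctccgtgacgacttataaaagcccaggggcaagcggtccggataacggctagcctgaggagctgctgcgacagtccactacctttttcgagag

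The ER stress element, spelled CCAAT, any 9 bases and CCACG and searched on both strands, was in 0.0916% of genes and in 2 members, HSPA5 and HSP90B1, neither of which passed the threshold. Their windows are given with the matches in capitals, 66 bases before the start in HSPA5 and 194 and 89 bases before it in HSP90B1.
HSPA5, chr9:125241294-125241593, minus strand: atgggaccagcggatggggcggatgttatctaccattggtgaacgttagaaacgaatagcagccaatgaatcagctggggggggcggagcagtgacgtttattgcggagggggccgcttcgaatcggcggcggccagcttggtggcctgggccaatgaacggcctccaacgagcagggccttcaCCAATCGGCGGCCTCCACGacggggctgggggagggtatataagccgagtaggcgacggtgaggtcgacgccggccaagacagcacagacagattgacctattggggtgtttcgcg
HSP90B1, chr12:103930160-103930459, plus strand: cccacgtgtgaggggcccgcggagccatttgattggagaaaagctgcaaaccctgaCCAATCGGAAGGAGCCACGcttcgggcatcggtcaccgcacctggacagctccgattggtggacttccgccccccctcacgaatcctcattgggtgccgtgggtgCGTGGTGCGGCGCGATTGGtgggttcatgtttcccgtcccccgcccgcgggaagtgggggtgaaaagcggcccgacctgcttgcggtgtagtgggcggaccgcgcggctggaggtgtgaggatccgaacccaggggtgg

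The letters GGAATG, the core that TEAD factors bind, were in the windows of 16.7% of genes and of 5 members. Of the tested members, HSPA4L, which fell, and DNAJC14, which did not pass, held them. Over all tested genes, 26.4% of those with these letters were lower and 27.3% higher, against 27.8% and 27.2% of those without. These matches describe letters within 300 bases and not bound sites.

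**Figure D3:**
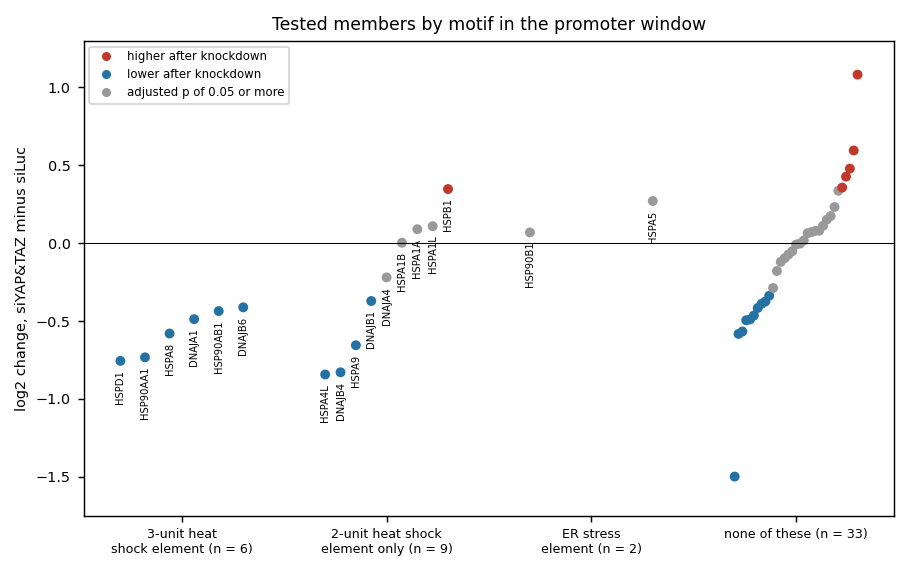
Log2 change, siYAP&TAZ minus siLuc, of the 50 tested members with a promoter window, by the longest motif found there. The 6 genes with a 3-unit heat shock element all fell, from -0.76 to -0.41, the 9 with the 2-unit element alone run from -0.84 for HSPA4L to 0.35 for HSPB1, and the 2 with an ER stress element are at 0.07 and 0.27.

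Folding genes outside the HSP and DNAJ names were described from lists of cofactors and neighbouring machinery. Over all genes tested, 27.5% were lower and 27.4% higher. Of 21 tested genes in the list of HSP70 and HSP90 cofactors, 10 fell (47.6%) and 3 rose (14.3%), with a median log2 change of -0.23. The list also holds the chaperones TRAP1 and HYOU1. The rises were ST13 and the ER genes HYOU1 and SIL1, which are also counted in the ER list below. FKBP4, an immunophilin that joins HSP90 to steroid receptors, was at 7.40, 7.26 and 7.23 on the siYAP&TAZ arrays and at 8.49, 8.98 and 8.59 on the siLuc arrays, 2.62-fold lower (adjusted p = 7.44e-06). CACYBP was 2.20-fold lower (adjusted p = 2.95e-06), and TRAP1, the HSP90 of mitochondria, 1.86-fold lower (adjusted p = 6.75e-05). ST13, which steadies the HSP70 cycle, was 1.38-fold higher (adjusted p = 0.00468), but did not pass with median scaling (change 0.25 in place of 0.47, adjusted p = 0.323). Of the 14 subunits of the cytosolic chaperonin and of prefoldin, 10 fell (71.4%) and 4 did not pass, and the median log2 change was -0.41. All 8 chaperonin subunits were among those that fell, led by CCT2 at 1.81-fold, CCT5 at 1.69-fold and CCT4 at 1.56-fold lower. The CCT5 probe lay near background and was detected on 2 siYAP&TAZ arrays and on all 3 siLuc arrays.

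Of 14 tested genes in the mitochondrial list, 8 fell (57.1%) and 2 rose (14.3%), with a median log2 change of -0.46. GRPEL1, the exchange factor of HSPA9, was at 8.19, 8.12 and 8.06 on the siYAP&TAZ arrays and at 9.26, 8.99 and 9.11 on the siLuc arrays, 1.99-fold lower (adjusted p = 1.61e-05). LONP1, the matrix protease, was 1.69-fold lower (adjusted p = 0.000197). The 2 that rose, SPG7 and HTRA2, are proteases, at 1.29-fold and 1.25-fold. With median scaling both missed the threshold, at changes of 0.14 and 0.15 in place of 0.37 and 0.32 (adjusted p = 0.596 and 0.581). HTRA2 also missed it without siYAP&TAZ replicate 3 (adjusted p = 0.0874), siLuc replicate 1 (0.0513) or siLuc replicate 3 (0.058).

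In the ER list, 6 of 18 tested genes rose (33.3%), none fell and 12 did not pass, with a median log2 change of 0.22. The share that rose was near that of all genes. With median scaling, 4 genes across the folding and heat shock factor lists stayed higher, namely HYOU1, CALR, SIL1 and HSF4. The other rises of the ER list, PDIA4, SYVN1 and EDEM1, did not pass there. HYOU1, the large HSP70 relative of the ER, was at 9.84, 9.87 and 9.75 on the siYAP&TAZ arrays and at 8.69, 8.64 and 8.37 on the siLuc arrays, 2.38-fold higher (adjusted p = 4.16e-06), although its other probe gave a log2 change of 0.15 against 1.25. CALR, a lectin chaperone, was 1.76-fold higher (adjusted p = 4.54e-05), and SIL1, an exchange factor of BiP, 1.70-fold higher (adjusted p = 9.9e-05). DDIT3, ATF6 and XBP1, regulators of the unfolded protein response, had changes of 0.20, -0.05 and 0.26 and did not pass. Of the heat shock factors, HSF1 was above background on 1 of the 3 siYAP&TAZ arrays and on none of the siLuc arrays and was not tested. HSF4 was at least 1.08-fold higher, with its probe below background on all siLuc arrays and so past the detection filter only through the siYAP&TAZ arrays. HSF2 had no probe of its own and was not analysed here.

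**Figure D4:**
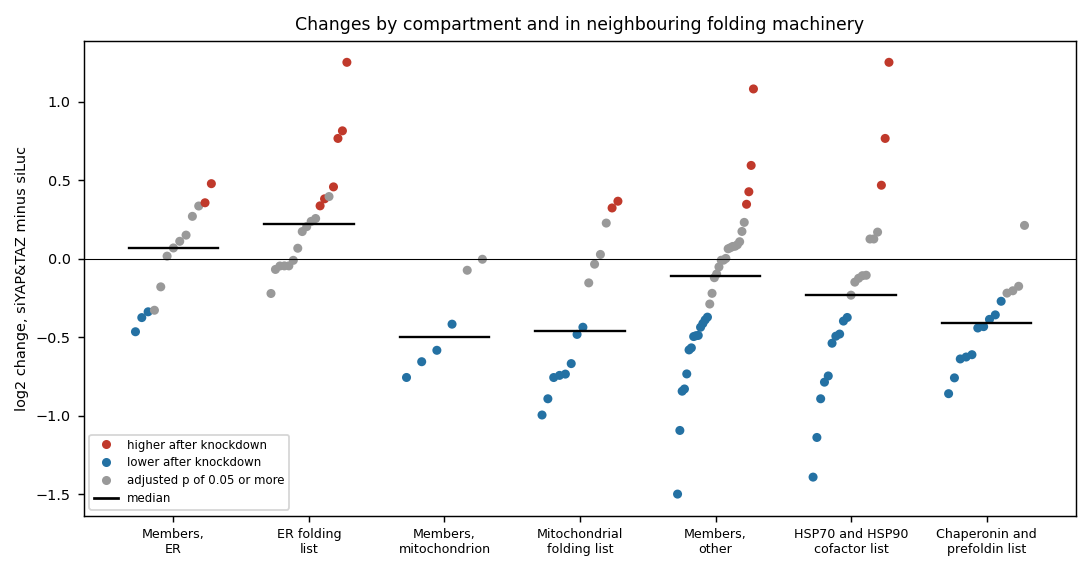
Log2 change, siYAP&TAZ minus siLuc, of tested members by compartment beside lists of related folding genes, with a line at each median. Mitochondrial members and the mitochondrial list have medians of -0.50 and -0.46, ER members and the ER list 0.07 and 0.22, and the chaperonin and prefoldin list -0.41. HYOU1, SIL1 and TRAP1 stand in 2 lists each, and DNAJC4 and DNAJC28 stand among the other members.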

How the data were processed

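Total RNA was amplified, labelled with biotin and hybridised to 1-colour Illumina bead arrays, per the labels' protocols. The submitters' processing notes name BeadStudio, without a version or settings. A deposited table of bead intensity values was on a linear scale and had no control probes or detection p-values, so the planned control-based correction could not be run. The authors' deposited log2 values, alike in distribution on all arrays, served as an alternative.

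Intensities were corrected with normexp fitted to each array (saddle-point, offset 16), quantile-normalised and put on the log2 scale, with limma 3.58.1 in R 4.3.3. Background was the mode of each array's log2 density (bandwidth 0.05), with values below it mirrored to set a detection threshold at an upper tail of 0.05. Probes detected on at least 3 of 6 arrays were fitted with lmFit and eBayes, both groups and no covariate, and adjusted over all 15899. The fit was tested on simulated data. Tests were two-sided. Changes are siYAP&TAZ minus siLuc. A fold against a group below background is a bound from the lowest detected signal. Each gene was represented by its brightest tested probe; 14 members had several. Gene names came from the platform annotation (30113 probes with 1 symbol, 8 with several, 17110 unnamed here), updated by Entrez identifier. Members named with values were the 4 largest rises and falls per family plus well-known chaperones, and up to 3 per list and direction; others were added after their values were seen. Members, compartments, lists and motifs were chosen with earlier results of these data known. Alternatives covered background correction, offset, scaling, detection filter, the authors' values, probe averaging, replicate block and leaving out each array. No figure of depth exists for arrays.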

Additional observations from a re-analysis of the deposited data

How the results depend on the processing

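None of the 27 calls among members changed sign under any of the 14 alternatives. All 27 were kept without background correction, with an offset of 50, with detection on all 6 arrays and with the authors' deposited values, and 26 were kept with replicate number as a block, which left 6 members higher and 22 lower. That block changed DNAJC21 (lost) and added calls for DNAJC1 and DNAJC18. Between arrays of the same number, deviations from the group means correlated at -0.177, -0.133 and -0.015. Arrays of different numbers were not compared, so whether equal numbers mark pairs is not settled. Members higher numbered 2 in place of 6 with median scaling. With no detection filter, where 72 genes were tested, 3 were higher and 16 lower in place of 21, and 5 of the 8 calls lost were falls (DNAJB1, DNAJC3, HSPA4, HSPA13 and HSPE1). Member probes higher numbered 2, 4 and, when single arrays were left out, 5 to 9, in place of 9, with the 5 reached without siLuc replicate 2. Pathway-list genes higher numbered 4 in place of 10 with median scaling. The cause was not tested, and the shares of all genes called under the alternatives are not given. Leaving out single arrays gave 18 to 22 members lower and 4 to 7 higher. The array signal limits dim genes: 17 members never rose above background.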

Other observations

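Probes of some members gave different answers. For DNAJB14, the brightest probe had a log2 change of 0.15 and did not pass, while the other tested probes gave 0.40 (adjusted p = 0.019) and -0.37 (adjusted p = 0.0354), so that calls of both signs came from the same gene. A dim DNAJB12 probe was detected on all 3 siYAP&TAZ arrays and on none of the siLuc arrays, at 6.18, 6.43 and 6.20 on the siYAP&TAZ arrays and 5.83, 6.03 and 6.01 on the siLuc arrays. It passed the detection filter only through the siYAP&TAZ arrays, so no fold is given. For DNAJC28, a probe read 13.57, 13.38 and 13.31 on the siYAP&TAZ arrays and 13.30, 13.58 and 13.54 on the siLuc arrays, while the other 3 probes of the gene stayed below background on every array. Among the cofactors, UNC45A, a chaperone of myosin, fell by its brighter probe (log2 change -0.54) with 0.51 for its other probe.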
